A study of Mus musculus with 24 samples.

Results

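The genes described here are 10 activity-induced neuronal genes, chosen by symbol and matched by Ensembl identifier to the 36605 genes of the hippocampal count table: the NR4A nuclear receptors Nr4a1, Nr4a2 and Nr4a3, the transcription factor Npas4, the synaptic proteins Arc, Homer1 and Nptx2, and the regulators Ier2, Btg2 and Tiparp. All 10 were found, and all 10 passed the filter on low counts. They were measured by RNA-seq in the hippocampus of 24 mice, 6 of each of 4 genotypes (3 females and 3 males), to ask whether their levels, and their relation to Fos from mouse to mouse, were kept without Egr1. The conditional knockout (Egr1cKO, Egr1fNesCre+) carried floxed Egr1 alleles and the Nestin-Cre transgene. Floxed controls (Egr1fNesCre-) carried the floxed alleles without Cre, Cre controls (Egr1wtNesCre+) carried Nestin-Cre with wild-type Egr1, and Egr1wtNesCre- mice carried neither. The labels give no treatment, and the age of the mice is not given in the labels. Nestin-Cre is active in neural precursors, so cells of other origin, such as those of vessels and meninges, may keep Egr1. Egr1 was not measured by cell type here. Egr1wt and Egr1f mice had label numbers in separate ranges, so a difference between these alleles and a difference between series of mice cannot be told apart.

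Activity-induced, or immediate early, genes are transcribed within minutes of synaptic activity without new protein synthesis, through factors already present, among them CREB at cAMP response elements and serum response factor at CArG boxes. Egr1 and Fos are transcription factors of this class and act on later genes, while Arc, Homer1 and Nptx2 encode proteins that work at the synapse itself. The NR4A receptors are transcription factors that act without a known physiological ligand and are induced in the hippocampus by learning.

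Egr1 itself followed the labels. Its level, in counts scaled by library size to CPM, was 4.86 to 10.2 in the 6 Egr1cKO mice (median 8.18) and 47.7 to 149 in the other 18, with no overlap. The log2 fold change was -3.56 (SE 0.20, 6 against 6 mice) against floxed controls and -3.43 (SE 0.22) against Cre controls, with adjusted p of 4.2e-08 and 4.9e-07 in edgeR's quasi-likelihood test. The libraries held 18025168 to 34955004 counts. A label also names the cell type as endocrine. A list of 10 hippocampal markers summed to 845 to 1817 CPM per mouse (median 1359.7; Zbtb20 was the most abundant, with a mean of 471), whereas 9 anterior pituitary markers summed to 1.00 to 3.98 CPM (median 2.37; Tshb was the most abundant, with a mean of 1.24). The hormone genes Gh, Prl, Cga and Fshb, and Pou1f1, Ghrhr and Gnrhr, had means below 0.1 CPM.

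Several mice stood apart in markers of neighbouring tissue. Egr1wtNesCre+ female 1 had a hippocampal sum of 939 CPM, the highest neocortical sum of the series (497 CPM for 8 markers, median 247) and 2075 CPM of choroid plexus markers (median 54.9). Egr1cKO male 3 had the lowest hippocampal sum, 845 CPM, and the highest striatal one (244 CPM, median 172). The next lowest hippocampal sum was 1125 CPM. Choroid plexus markers were also high in Egr1cKO male 2 (1152 CPM), in floxed males 3 (1055 CPM) and 2 (823 CPM) and, less so, in Egr1wtNesCre+ male 3 (329.6 CPM), whereas the remaining 19 mice had 32.0 to 82.5 CPM. Of the 6 males compared between Egr1cKO mice and floxed controls, 3 were thus rich in these markers. Results were also computed without the 2 mice low in hippocampal markers (Egr1wtNesCre+ female 1 and Egr1cKO male 3) and without the 4 mice highest in choroid plexus markers.

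The promoters of 7 of the 10 genes were found among RefSeq promoter sequences (GRCm38.p6), and they are shown for what the group shares in sequence. The 250 bases before each start site were searched on both strands for TGACG, the core of the cAMP response element, which 17.8% of 32851 mouse promoter windows contain. It occurred in 6 of the 7 genes, namely Npas4 (2 matches), Nr4a1 (4), Nr4a2 (4), Nr4a3 (4), Homer1 (3, in 1 of its 2 windows) and Btg2 (2, which overlap), and not in Tiparp. The palindrome TGACGTCA, which contains the core on both strands, occurred only in Btg2 (1.55% of all windows). An EGR-type motif, GCGNGGGCG, occurred in Nr4a1, Nr4a2 and Btg2 (4.70% of all windows). The CArG box (1.47% of all windows), the AP-1 motif TGANTCA (6.75%) and the NR4A response element AAAGGTCA (1.34%) had no match in the windows searched. Such matches describe letters and not binding. The 3 windows with the EGR-type motif are printed, since Egr1 is the gene deleted here and since Nr4a1 and Btg2 followed Fos across mice while Nr4a2 did not. Capitals mark TGACG or its complement CGTCA, and the sequences run 5' to 3' on the strand of the gene, at chr15:101266596-101266845 (plus strand) for Nr4a1, chr2:57124004-57124253 (minus strand) for Nr4a2 and chr1:134079156-134079405 (minus strand) for Btg2.
Nr4a1: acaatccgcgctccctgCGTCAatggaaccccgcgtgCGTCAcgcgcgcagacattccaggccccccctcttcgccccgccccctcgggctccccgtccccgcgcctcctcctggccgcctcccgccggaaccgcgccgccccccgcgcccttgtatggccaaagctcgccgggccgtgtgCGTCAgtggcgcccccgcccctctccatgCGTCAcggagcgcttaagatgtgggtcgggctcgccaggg
Nr4a2: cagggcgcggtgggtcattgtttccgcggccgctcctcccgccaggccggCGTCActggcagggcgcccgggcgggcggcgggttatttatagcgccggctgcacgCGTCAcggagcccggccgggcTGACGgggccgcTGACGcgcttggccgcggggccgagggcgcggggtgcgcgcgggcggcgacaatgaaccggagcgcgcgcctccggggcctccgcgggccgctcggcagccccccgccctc
Btg2: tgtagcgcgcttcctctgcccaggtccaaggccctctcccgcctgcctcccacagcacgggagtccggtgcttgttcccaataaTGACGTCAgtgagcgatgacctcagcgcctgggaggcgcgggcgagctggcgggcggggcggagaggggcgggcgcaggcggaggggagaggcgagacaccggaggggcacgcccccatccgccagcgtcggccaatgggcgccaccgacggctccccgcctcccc
Counted with the base before the start site as position -1, the EGR-type motif begins at -60 in Nr4a1, at -74 in Nr4a2 and at -131 in Btg2. In the GENCODE M21 annotation of GRCm38 the Nr4a1 window lies in an intron of a longer Nr4a1 transcript, and those of Nr4a2 and Btg2 lie outside genes. The windows of Npas4, Nr4a3 and Tiparp reach into an annotated first exon and are not printed.

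Across all 24 mice the genes differed in both level and spread. Per kilobase of exonic sequence, Arc had the highest mean level (58.8 CPM per kb), followed by Nr4a1 (25.7), Nr4a3 (19.9), Nr4a2 (16.5), Homer1 (15.0) and Nptx2 (14.4), with Btg2 (6.86), Ier2 (4.76), Tiparp (4.71) and Npas4 (4.38) lowest. Among the 18 mice with intact Egr1, the SD of the log2 level was 0.78 for Npas4, 0.61 for Ier2, 0.55 for Btg2, 0.55 for Arc and 0.47 for Nr4a1, against a median of 0.18 over 15125 genes. Between 98.2% and 99.7% of genes had a lower SD than these 5. The other 5 genes had SDs of 0.29 to 0.34, above those of 84.5% to 92.0% of genes. Between its lowest and highest mouse Npas4 ranged 12.9-fold and Ier2 7.47-fold, whereas Tiparp ranged 2.43-fold.

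**Figure D1:**
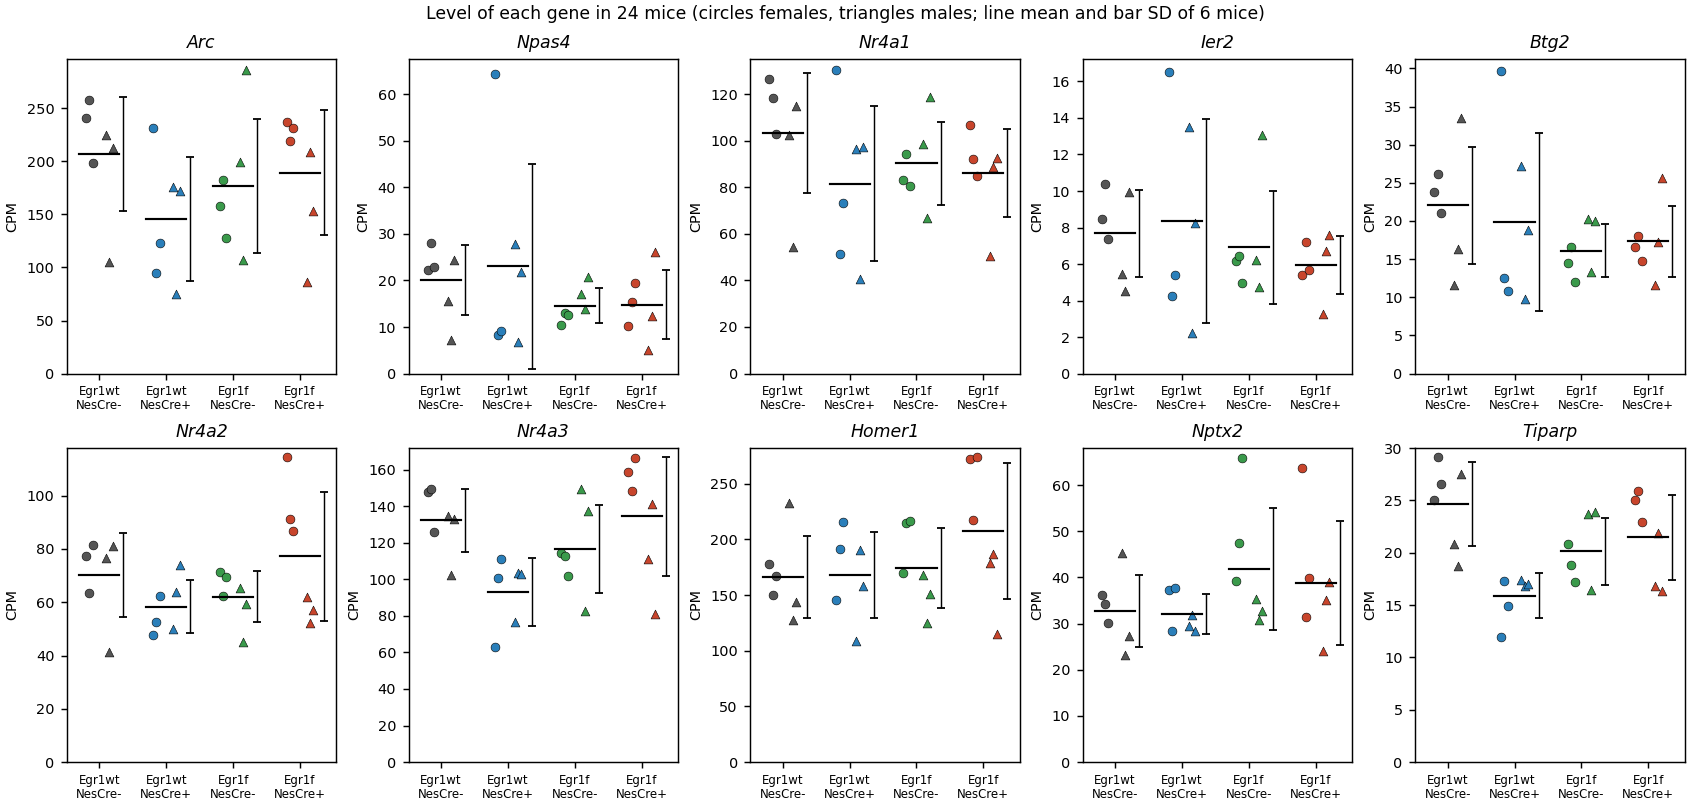
Level of each of the 10 genes in CPM (vertical axis, from 0) in the 24 mice by genotype (horizontal axis), with circles for females, triangles for males, the line at the mean and the bar at the SD of 6 mice. The genotypes overlap except for Tiparp, where all 6 Egr1wtNesCre+ mice lie below all 6 Egr1wtNesCre- mice, and 1 Egr1wtNesCre+ female stands far above the others for Npas4 (64.4 CPM).

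Levels of the NR4A receptors did not pass the test when Egr1 was lost. Nr4a1 (ENSMUSG00000023034, chr15:101254269-101274795, plus strand of GRCm38), the receptor also called Nur77, ranged from 50.6 to 107 CPM in Egr1cKO mice (median 90.5), from 66.8 to 119 in floxed controls (median 88.6), from 40.4 to 131 in Cre controls (median 84.7) and from 54.4 to 127 in Egr1wtNesCre- mice (median 109). All 4 genotypes overlapped, and the log2 fold change of Egr1cKO mice was -0.070 against floxed controls (95% CI -0.38 to 0.24, adjusted p = 0.837) and 0.074 against Cre controls (-0.41 to 0.56, adjusted p = 0.913). A gene was called where its fold change reached 1.2 and its adjusted p was no higher than 0.05 in edgeR, and in these terms 0 of the 10 genes were called against floxed controls, beside 0.0174% of 17265 genes (Egr1, Aqp4 and Tnc), and 0 of the 10 against Cre controls, beside 0.00585% of 17080 genes (Egr1 alone). At an unadjusted p under 0.05 stood 0 of the 10 against floxed controls, beside 16.2% of all genes, and 3 of the 10 (Nr4a2, Nr4a3 and Tiparp) against Cre controls, beside 12.3%. DESeq2 also called 0 of the 10 in both, beside 0.198% of 34275 genes (68) against floxed and 0.0968% of 34103 genes (33) against Cre controls. Without the 4 mice highest in choroid plexus markers, which include Egr1cKO male 2 and floxed males 2 and 3, edgeR called 0 of the 10 in both as well, with log2 fold changes between -0.24 and 0.29 against floxed controls. In bulk tissue, fewer cells of a type and less RNA per cell cannot be told apart.

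Nr4a2 (ENSMUSG00000026826, chr2:57106830-57124003, minus strand of GRCm38), a receptor best known from midbrain dopamine neurons, ranged from 52.1 to 114 CPM in Egr1cKO mice (median 74.4), from 45.0 to 71.3 in floxed controls (median 63.7), from 47.6 to 74.0 in Cre controls (median 57.4) and from 41.2 to 81.6 in Egr1wtNesCre- mice (median 76.9). The 3 highest values of the series, 114, 91.4 and 86.7 CPM, were those of the Egr1cKO females, while the Egr1cKO males, at 62.1, 52.1 and 57.2 CPM, lay among the controls. Its log2 fold change was 0.32 against floxed controls (95% CI -0.030 to 0.66, adjusted p = 0.345) and 0.40 against Cre controls (0.048 to 0.76, adjusted p = 0.374). Nr4a3 (ENSMUSG00000028341, chr4:48045153-48086447, plus strand of GRCm38), the third receptor of the family, had 159, 148 and 166 CPM in Egr1cKO females and 111, 141 and 80.9 CPM in Egr1cKO males, against 62.9 to 149 CPM in the other 18 mice. Here too the females lay at the top of the range and the males within it. The log2 fold change of Nr4a3 was 0.21 against floxed controls (95% CI -0.12 to 0.54, adjusted p = 0.518) and 0.53 against Cre controls (0.19 to 0.87, adjusted p = 0.351).

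Npas4 (ENSMUSG00000045903, chr19:4984355-4990316, minus strand of GRCm38), a neuron-specific transcription factor induced by calcium entry, ranged from 5.001 to 26.2 CPM in Egr1cKO mice (median 13.9), from 10.5 to 20.7 in floxed controls (median 13.4), from 6.69 to 64.4 in Cre controls (median 15.4) and from 7.13 to 28.1 in Egr1wtNesCre- mice (median 22.6). The lowest value of the series belonged to an Egr1cKO mouse and the highest to a Cre control, and the groups overlapped. Its log2 fold change was 0.018 against floxed controls (95% CI -0.56 to 0.60, adjusted p = 0.982) and -0.64 against Cre controls (-1.67 to 0.38, adjusted p = 0.576). Without Egr1wtNesCre+ female 1 and Egr1cKO male 3 these values were -0.23 and -0.24, and without the 4 mice highest in choroid plexus markers they were 0.19 and 0.047.

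Among the synaptic effectors, Arc (ENSMUSG00000022602, chr15:74669083-74672570, minus strand of GRCm38), which drives internalisation of AMPA receptors, ranged from 86.5 to 237 CPM in Egr1cKO mice (median 214), from 107 to 286 in floxed controls (median 171), from 75.2 to 232 in Cre controls (median 147) and from 106 to 258 in Egr1wtNesCre- mice (median 219). Each genotype held mice near both ends of this range. The log2 fold change of Arc was 0.10 against floxed controls (95% CI -0.39 to 0.59, adjusted p = 0.852) and 0.38 against Cre controls (-0.16 to 0.92, adjusted p = 0.537). Homer1 (ENSMUSG00000007617, chr13:93299635-93405129, plus strand of GRCm38), a scaffold of metabotropic glutamate receptors, had 272, 217 and 274 CPM in Egr1cKO females and 179, 187 and 115 CPM in Egr1cKO males, against 108 to 232 CPM in the other 18 mice. Its counts cover the whole gene and do not separate the short activity-induced isoform from the long ones. The log2 fold change of Homer1 was 0.25 against floxed (adjusted p = 0.48) and 0.30 against Cre controls (adjusted p = 0.504). Nptx2 (ENSMUSG00000059991, chr5:144545902-144557478, plus strand of GRCm38), a secreted pentraxin that clusters AMPA receptors, had 24.0 to 63.7 CPM in Egr1cKO mice and 23.3 to 66.0 CPM in the others, nearly the same range. Its log2 fold changes were -0.11 (adjusted p = 0.823) and 0.27 (adjusted p = 0.51).

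The remaining 3 genes were not called either. Ier2 (ENSMUSG00000053560, chr8:84661331-84662852, minus strand of GRCm38), a nuclear immediate early protein, had 3.24 to 7.62 CPM in Egr1cKO mice and 2.21 to 16.5 CPM in the other 18, with log2 fold changes of -0.21 against floxed (adjusted p = 0.678) and -0.49 against Cre controls (adjusted p = 0.573). Btg2 (ENSMUSG00000020423, chr1:134075170-134079120, minus strand of GRCm38), an antiproliferative cofactor of mRNA deadenylation, had 11.7 to 25.6 CPM against 9.78 to 39.6 CPM, with 0.10 (adjusted p = 0.781) and -0.20 (adjusted p = 0.793). Tiparp (ENSMUSG00000034640, chr3:65528410-65555518, plus strand of GRCm38), a mono-ADP-ribosyltransferase that represses the aryl hydrocarbon receptor, had 16.4 to 25.9 CPM against 12.0 to 29.2 CPM, with 0.091 (adjusted p = 0.749) and 0.43 (adjusted p = 0.351). For all 3 the Egr1cKO values lay inside the range of the other mice. With 1 mouse left out at a time, the value of Ier2 against Cre controls ran over -0.68 to -0.18. It was -0.25 without the 2 mice low in hippocampal markers and -0.21 without the 4 mice highest in choroid plexus markers. The library kit does not mark strand, so reads of the antisense gene 4931440P22Rik (1.14 CPM), which overlaps Tiparp, cannot be told apart from its own. Against all 18 other mice together 0 of the 10 genes were called (beside 0.00543% of 18433 genes, Egr1 alone), and the largest positive values were those of Homer1 (log2 fold change 0.29) and Nr4a2 (0.29), both with an adjusted p of 0.317. In the comparison with floxed controls 9 of 10 meningeal markers were positive (median log2 fold change 0.62, summed level 51.1 to 109 against 52.3 to 68.9 CPM, Dcn the most abundant), and in that with Cre controls all 10 glucocorticoid-responsive genes were (median 0.36, summed level 269.8 to 605 against 264 to 379 CPM), and their part in these values was not tested.

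**Figure D2:**
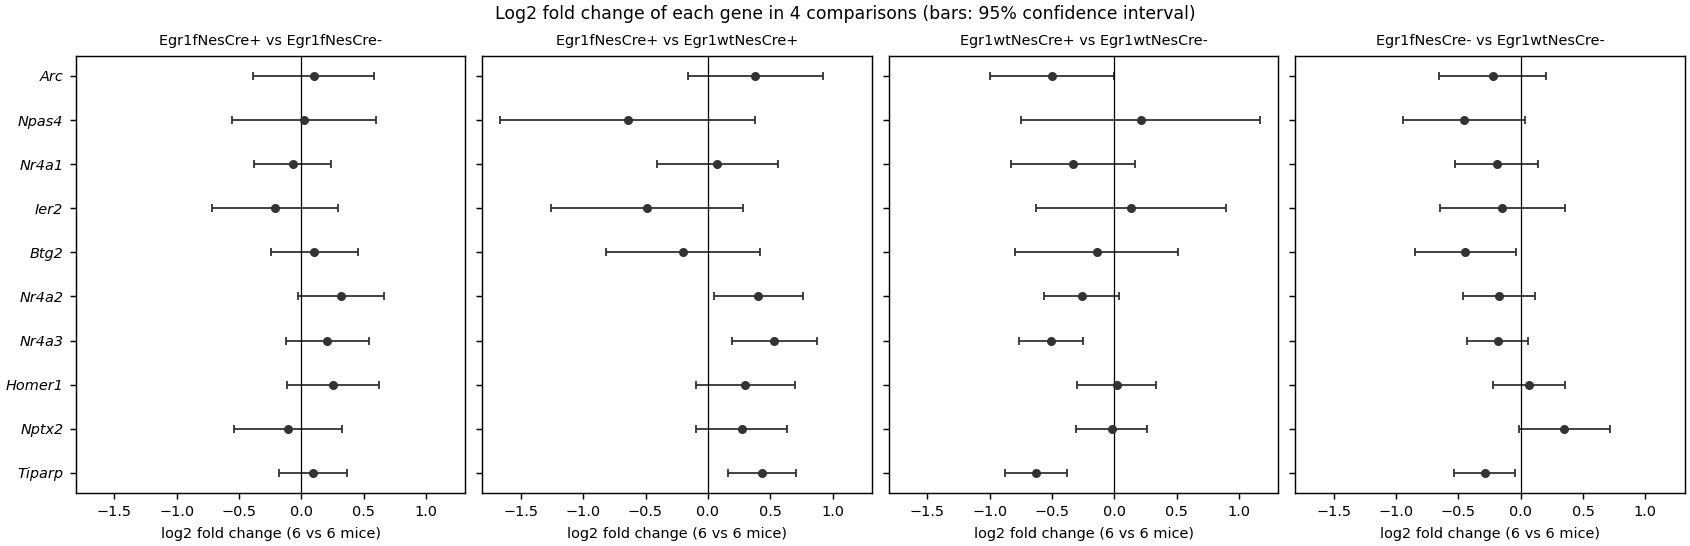
Log2 fold change (horizontal axis) of each of the 10 genes in 4 comparisons of 6 against 6 mice (panels), with bars for the 95% confidence interval of the edgeR fit. Against floxed controls every interval includes 0, and the intervals of Tiparp and Nr4a3 lie below 0 for Nestin-Cre alone and above 0 for Egr1cKO against Cre controls, 2 comparisons that share the Egr1wtNesCre+ mice.

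The high Egr1cKO females led to a look at each sex, chosen after these values were seen and so a description of the same mice. In females, 5 of the 10 genes (Arc, Nr4a2, Nr4a3, Homer1 and Tiparp) were higher in all 3 Egr1cKO mice than in all 3 floxed controls, beside 10.8% of all genes, and 4 of them (all but Arc) were higher than in all 3 Cre controls, beside 11.8%. Arc was 237, 219.6 and 231 CPM in these females, against 158, 183 and 128 in floxed and 232, 95.1 and 123 in Cre controls. Nr4a3 passed the threshold against floxed controls (log2 fold change 0.52, SE 0.085, adjusted p = 0.0319), as did 50 of 17359 genes (0.288%). Against Cre controls, Nr4a2 (0.85, adjusted p = 0.0146), Tiparp (0.74, adjusted p = 0.0356) and Nr4a3 (0.78, adjusted p = 0.0481) passed, as did 310 of 17141 genes (1.81%). Marker sums of other tissues separated the same females. Choroid plexus markers (Ttr the most abundant) were 60.4, 52.1 and 56.2 CPM in Egr1cKO and 37.0, 38.0 and 40.4 CPM in floxed females, and the 7 blood markers (Hbb-bs the most abundant) were 38.1, 29.3 and 47.7 CPM in Egr1cKO and 79.5, 58.2 and 68.1 CPM in Cre females. Choroid plexus markers were thus higher than in every floxed female and blood markers lower than in every Cre female, and the part of either tissue in these calls was not tested. Egr1wtNesCre+ female 1 had the lowest level of all 3 among the Cre females, and without it, which leaves 2 Cre controls, the values were 0.76 for Nr4a2 (adjusted p = 0.00161), 0.61 for Tiparp (adjusted p = 0.0105) and 0.58 for Nr4a3 (adjusted p = 0.000885). Arc (1.07, adjusted p = 7.9e-05), Nr4a1 (0.61, adjusted p = 0.0123) and Npas4 (0.78, adjusted p = 0.0476) were then called too, as were 1322 of 17659 genes (7.49%). Fos, at 19.0, 25.1 and 21.5 CPM in Egr1cKO females, then had a value of 1.24. With all 3 Cre females the values were 0.61 for Arc, 0.15 for Nr4a1, -0.87 for Npas4 and -0.11 for Fos, none called. Npas4 and Fos thus turned direction when 1 mouse was left out. Against floxed females, which had 13.99 to 17.7 CPM of Fos, the value of Fos was 0.49 (adjusted p = 0.098 in edgeR). 

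In males 0 of the 10 genes passed in either comparison, with or without Egr1cKO male 3, and Egr1 was the only gene called in each of these fits. It made up 0.00569% of the genes tested against floxed and 0.00575% against Cre controls with all 3 Egr1cKO males, and 0.00555% and 0.00558% without male 3, so that 0 of 10 does not set the members apart from other genes. With all 3 Egr1cKO males the groups overlapped for all 10. Of all genes, 4% were higher and 4.93% lower in every Egr1cKO male than in every floxed control. Against every Cre control, 3.49% were higher and 3.98% lower. Beside shares this small, 0 of 10 without overlap does not set the members apart either. Male 3 was the mouse lowest in hippocampal markers. Without it, 1 of the 10 genes was higher and 1 lower than in every floxed male, beside 11.2% and 13.6% of all genes. Against Cre males 1 was higher, beside 8.08%, and 0 lower. These counts are near the shares of all genes and do not set the members apart. Npas4 was 5.001, 12.3 and 26.2 CPM in Egr1cKO males 1, 2 and 3 and 17.1, 13.8 and 20.7 CPM in floxed males, so that without male 3 both Egr1cKO males lay below all 3 floxed males, as they did for 13.6% of all genes. Its log2 fold change was then -0.97 (unadjusted p = 0.00625, adjusted p = 0.605 in edgeR) against floxed and -1.11 (adjusted p = 0.866) against Cre males. Fos, at 4.76, 16.2 and 26.3 CPM in the Egr1cKO males, had values of -1.16 (unadjusted p = 0.0224, adjusted p = 0.605 in edgeR) and -0.74 (adjusted p = 0.866). Neither gene passed the adjusted threshold, and of the 2 remaining Egr1cKO males male 1 had the lowest level of either gene in that genotype. Without male 3, Homer1 lay above all 3 floxed males (0.31, adjusted p = 0.605), beside 11.2% of all genes, and Nr4a3 above all 3 Cre males (0.43, adjusted p = 0.866), beside 8.08%. Egr1cKO male 2 and floxed males 2 and 3 are the males rich in choroid plexus markers, and the part of that tissue in these values was not tested. Summed endothelial markers were 239.7, 231 and 233 CPM in Egr1cKO males, above all floxed (221, 219.8 and 196 CPM) and all Cre males (216, 211 and 136 CPM), and the glucocorticoid-responsive genes summed to 351, 418 and 269.8 CPM, below all floxed males (430.0, 438 and 434 CPM), and their part was not tested either.

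The difference between the sexes itself was tested as an interaction and called 0 of 18622 genes against floxed and 0 of 18468 against Cre controls. For Nr4a2 it was 0.51 on the log2 scale (adjusted p = 0.999) and 0.98 (adjusted p = 0.963), for Nr4a3 0.67 (adjusted p = 0.999) and 0.55 (adjusted p = 0.963), and for Tiparp 0.59 (adjusted p = 0.999) and 0.64 (adjusted p = 0.963). Of the 10 genes, 4 against floxed (Arc, Nr4a2, Nr4a3 and Tiparp) and 2 against Cre controls (Nr4a2 and Tiparp) stood at an unadjusted p under 0.05, beside 4.22% and 4.32% of all genes, and DESeq2 called 0 of the 10 (3 of 34281 and 1 of 34129 genes). Without the filter on low counts, edgeR called Arc and Nr4a3 among 59 genes against floxed controls and Nr4a2 among 140 genes against Cre controls. The 10 glucocorticoid-responsive genes, of which Sgk1 was the most abundant, summed to 605, 518 and 418 CPM in Egr1cKO females, 446, 450.3 and 559 CPM in female floxed controls and 264, 379 and 344 CPM in female Cre controls, and their part in these differences was not tested.

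Nestin-Cre in mice with wild-type Egr1 was accompanied by a clean separation for Tiparp. Its level was 12.0, 17.3 and 14.9 CPM in females and 17.4, 16.9 and 17.0 CPM in males with Cre, and 25.0, 29.2 and 26.6 and 20.9, 18.8 and 27.5 CPM in females and males without it. All 6 mice with Cre lay below all 6 without, as they did for 0.137% of 19742 genes. The log2 fold change of -0.63 (SE 0.12, 6 against 6) had an adjusted p of 0.184, above the threshold, and edgeR called 0 of the 10 genes and 0 of 17167 genes here (1095 at an unadjusted p under 0.05). DESeq2 called 19 genes, Tiparp (adjusted p = 0.00106) and Nr4a3 (adjusted p = 0.045) among them. Leaving out Egr1wtNesCre+ male 2 brought Tiparp past the threshold in edgeR (-0.65, adjusted p = 0.0376, with 111 genes called), and its adjusted p lay between 0.0376 and 0.529 when any 1 of the 12 was omitted.

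For Nr4a3 the effect of Nestin-Cre was -0.51 on the log2 scale (SE 0.12, adjusted p = 0.577), with levels of 62.9 to 111 CPM with Cre and 102 to 149 CPM without, and for Arc -0.50 (SE 0.24, adjusted p = 0.729). These groups overlapped, Nr4a3 only narrowly. Values of the other genes lay between -0.33 (Nr4a1) and 0.21 (Npas4). The 40 other activity-induced genes had a median of -0.14, with 31 of 40 negative and 0 called, beside a median of 0.014 over all genes. All 10 glucocorticoid-responsive genes (median -0.25, summed level 264 to 379 CPM with Cre and 317 to 532 without) and all 10 hippocampal markers (median -0.11, summed level 939 to 1817 and 1269 to 1585 CPM) were negative in the same comparison. Choroid plexus markers went the other way, with all 6 of those tested positive (median 2.20) and Ttr the most abundant, and their sums did not overlap, at 2075, 64.6 and 58.1 CPM in females and 75.1, 63.1 and 329.6 CPM in males with Cre against 37.2 to 49.5 CPM without. The part of these lists in the values of Tiparp and Nr4a3 was not tested, and without Egr1wtNesCre+ female 1, the mouse with the highest choroid plexus sum, the log2 fold change was -0.57 for Tiparp (adjusted p = 0.155) and -0.42 for Nr4a3 (adjusted p = 0.47).

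In females alone the values of Npas4, Arc and Fos with Nestin-Cre depended on 1 animal. Egr1wtNesCre+ females 1, 2 and 3 had 64.4, 8.38 and 9.11 CPM of Npas4, against 22.3, 28.1 and 23.0 CPM in the 3 females without Cre. Their Arc levels were 232, 95.1 and 123 CPM, against 241, 258 and 198 CPM, and their Fos levels 51.8, 9.96 and 8.55 CPM, against 30.8, 27.3 and 27.3 CPM. Female 1 thus lay above the females without Cre in Npas4 and Fos and among them in Arc, and the other 2 lay far below. With all 6 females edgeR called 0 of the 10 genes (Npas4 0.18, adjusted p = 0.964), and DESeq2 called Nr4a3 and Tiparp among 57 genes. Nr4a2, Nr4a3 and Tiparp were lower in every female with Cre, beside 7.59% of all genes, and whichever female was omitted the log2 fold change lay between -1.001 and -0.75 for Tiparp and between -0.78 and -0.42 for Nr4a3. Without female 1, the mouse rich in choroid plexus and cortical markers, edgeR called 5 of the 10 genes, namely Npas4 (-1.49, adjusted p = 0.00342), Arc (-1.09, adjusted p = 0.0104), Btg2 (-1.02, adjusted p = 0.0203), Nr4a1 (-0.90, adjusted p = 0.0302) and Tiparp (-0.75, adjusted p = 0.0471), with 33 genes called in all and only 2 females left with Cre. In males 0 genes were called, and Tiparp alone was lower in every male with Cre, beside 3.09% of all genes.

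With the floxed allele and no Cre, edgeR called 1 of the 10 genes, in females. Npas4 was 10.5, 13.1 and 12.5 CPM in the Egr1fNesCre- females and 22.3, 28.1 and 23.0 CPM in the Egr1wtNesCre- females, with no overlap. It fell by 1.02 on the log2 scale (SE 0.14, adjusted p = 0.0487), where edgeR called 0.0113% of 17727 genes, Slc2a1 being the other, and 0.00564% as lower. Fos, which is not among the 10, was 13.99, 17.7 and 14.8 CPM against 30.8, 27.3 and 27.3 CPM (log2 fold change -0.88, adjusted p = 0.0505). Btg2 (-0.71), Arc (-0.57), Ier2 (-0.57), Tiparp (-0.50), Nr4a1 (-0.43) and Nr4a3 (-0.36) also had log2 values below 0, with adjusted p between 0.412 and 0.535, while Nptx2 (0.60) and Homer1 (0.28) had values above 0. In all, 7 of the 10 genes were lower in every Egr1fNesCre- female than in every Egr1wtNesCre- female, beside 6.11% of all genes, and Nptx2 was higher in every one, beside 6.7%.

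DESeq2 called 4 of the 10 genes in the females, namely Npas4 (log2 fold change -1.03), Arc, Nr4a1 and Btg2, among 35 genes. In edgeR the log2 fold change of Npas4 stayed between -1.09 and -0.92 whichever of the 6 females was omitted, while its adjusted p did not always stay under the threshold. With the replicate number as a block its adjusted p was 0.0662, and leaving out any 1 of 5 of the 6 females raised it to between 0.0823 and 0.295. Leaving out Egr1fNesCre- female 1 instead called 8 of the 10 genes (all but Nr4a2 and Ier2) and 1136 genes in all. In the females, all 10 glucocorticoid-responsive genes (median log2 fold change 0.30) and all 10 endothelial markers (median 0.43, summed level 225, 204 and 176 CPM with the floxed and 119.8, 207 and 146 CPM with the wild-type allele, Flt1 the most abundant) had positive values with the floxed allele, and their part in the values of Npas4 and Fos was not tested.

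In males the floxed allele gave log2 values between -0.23 and 0.27 for the 10 genes, with 0 called and overlapping groups throughout. Of all genes, 4.1% were higher and 3.87% lower in every male with it, so this overlap does not set the 10 apart. Npas4 was 17.1, 13.8 and 20.7 CPM in Egr1fNesCre- males and 15.5, 7.13 and 24.3 CPM in Egr1wtNesCre- males. The difference between the sexes for Npas4 was -1.17 on the log2 scale (SE 0.40, adjusted p = 1.00) and was not called. With both sexes together 0 of 17393 genes were called (1781 at an unadjusted p under 0.05 in edgeR, 1 called by DESeq2), and the value for Npas4 was -0.45 (SE 0.23, adjusted p = 0.501).

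The effect of Nestin-Cre in Egr1f mice minus that in Egr1wt mice, fitted over all 24, was not called by edgeR for any of the 10 genes (beside 0.00507% of 19742 genes, Egr1 alone), while DESeq2 called Nr4a3 among 335 genes. It was 0.71 on the log2 scale for Tiparp (SE 0.18) and 0.70 for Nr4a3 (SE 0.22), both with an adjusted p of 0.159, and 0.55 for Nr4a2 (SE 0.22, adjusted p = 0.201). These values contain the Nestin-Cre comparison with its sign turned and are not separate from it, and all 10 choroid plexus markers had negative ones (median -3.04), whose part was not tested. Females against males gave 0 of the 10 genes called in edgeR, beside 0.0701% of 17124 genes. At an unadjusted p under 0.05 stood 3 of the 10, beside 969 of the 17124. The largest values, all positive, were those of Nptx2 (0.36, adjusted p = 0.741), Homer1 (0.35, adjusted p = 0.7) and Nr4a2 (0.27, adjusted p = 0.828).

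The level of some of the 10 genes followed Fos closely from mouse to mouse. Fos ranged from 4.42 to 51.8 CPM in the 18 Egr1-intact mice and from 4.76 to 26.3 CPM in the 6 Egr1cKO mice. A slope on log2(Fos CPM + 1) was fitted for every gene over all 24 mice, with genotype and sex as terms, separately for intact and Egr1cKO mice and with Fos itself left out, so that a slope near 1 means a change in proportion to Fos. In the 18 intact mice 0.0608% of 19741 genes (12 genes, all positive) were called, and 5 of the 10 genes described here were among them. The slopes were 0.95 for Npas4 (SE 0.081, adjusted p = 9.8e-08), 0.77 for Ier2 (SE 0.081, adjusted p = 3.1e-06), 0.59 for Btg2 (SE 0.071, adjusted p = 4.1e-05), 0.54 for Arc (SE 0.069, adjusted p = 8.1e-05) and 0.50 for Nr4a1 (SE 0.046, adjusted p = 3.5e-07). They are the 5 genes with the widest spread. The slopes of Tiparp (0.074), Nr4a2 (0.057), Nr4a3 (-0.0088), Nptx2 (-0.014) and Homer1 (-0.14) were not called, with SEs of 0.067 to 0.086. Hippocampal markers had negative slopes in 9 of 10 cases (median -0.14) and choroid plexus markers positive ones in all 10 (median 1.15), and their part in the slopes was not tested. DESeq2 called the same 5 genes among 291.

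**Figure D3:**
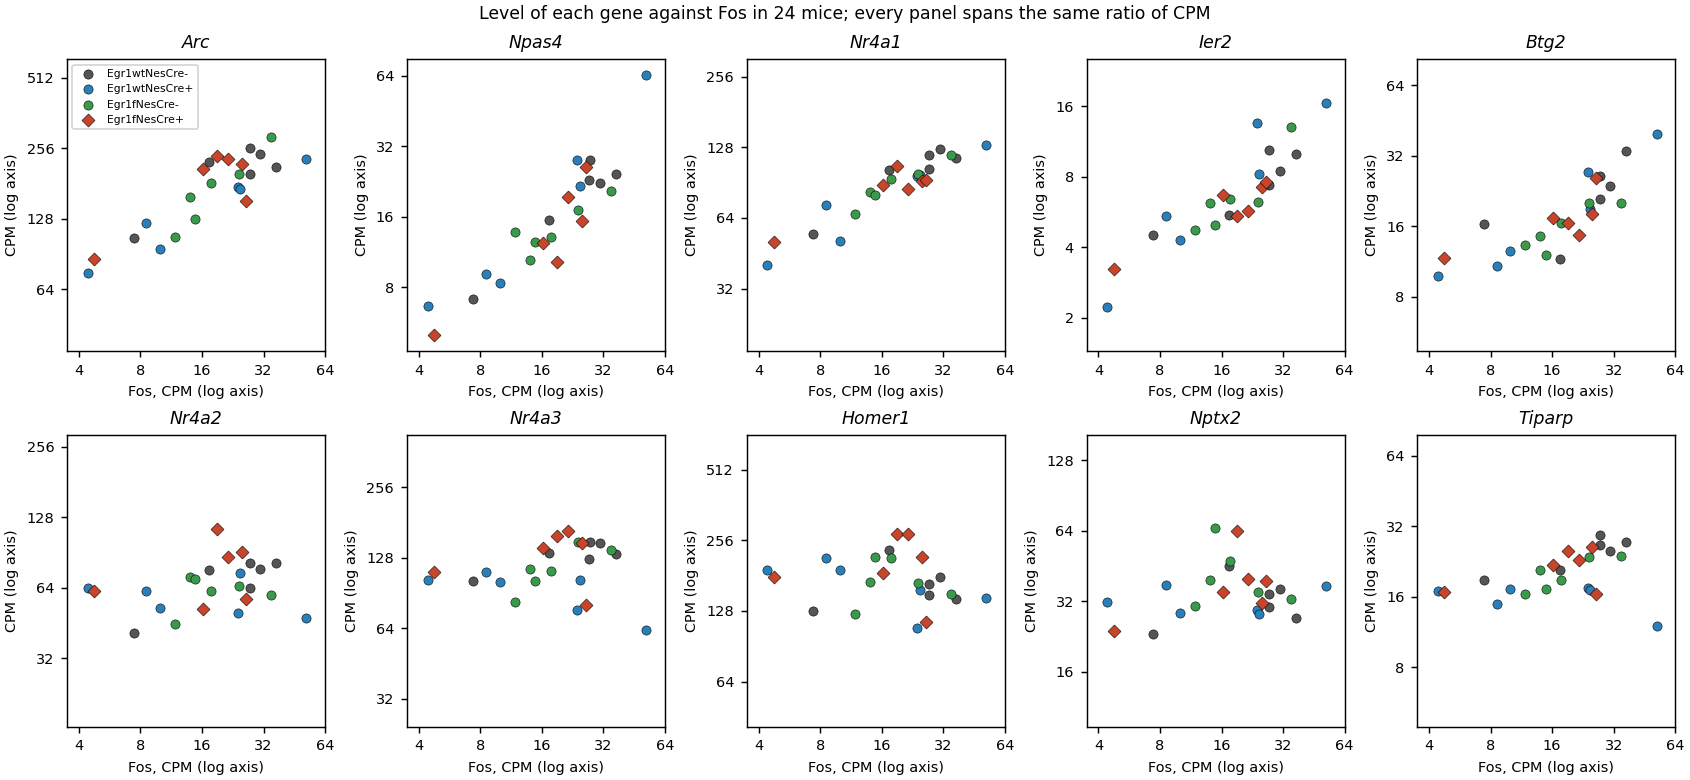
Level of each of the 10 genes (vertical log axis, CPM) against Fos (horizontal log axis, CPM) in 24 mice, with the 6 Egr1cKO (Egr1fNesCre+) mice and the 3 Egr1-intact genotypes marked separately. Levels of Npas4, Ier2, Btg2, Arc and Nr4a1 climb with Fos in intact mice, with slopes of 0.50 to 0.95, while the slopes of the other 5 lie between -0.14 and 0.074.

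Put as correlations across the 18 intact mice, Pearson's r of the log2 levels with Fos was 0.94 for Nr4a1 (Spearman's rho 0.95), 0.92 for Npas4 (0.90), 0.90 for Ier2 (0.90), 0.90 for Arc (0.89) and 0.86 for Btg2 (0.85). Each r and rho had an unadjusted permutation p between 1e-05, the smallest that 100000 draws can give, and 4e-05. The other 5 genes had r between -0.28 and 0.34 and rho between -0.33 (Homer1) and 0.49 (Tiparp). The rho of Tiparp had an unadjusted permutation p of 0.0384. Of 15124 genes, 0.0397% had r above 0.9, and 4 of the 10 (Nr4a1, Npas4, Ier2 and Arc) were among them. Without the 2 mice farthest from the median of Fos (Egr1wtNesCre+ male 2 and Egr1wtNesCre- male 2), r of the 5 genes was 0.84 to 0.91. In the 12 Egr1wt mice alone it was 0.88 to 0.95.

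Within single genotypes of 6 mice the relation was less secure. For the 5 genes r was 0.69 to 0.96 in Egr1wtNesCre-, 0.95 to 0.97 in Egr1wtNesCre+ and 0.87 to 0.96 in Egr1fNesCre- mice. Without the 2 mice farthest from the median of Fos in each genotype it was -0.24 to 0.83, 0.82 to 0.97 and -0.083 to 0.96. Nr4a3 showed opposite signs, with r of 0.81 in Egr1wtNesCre-, -0.81 in Egr1wtNesCre+ and 0.85 in Egr1fNesCre- mice, and so did Tiparp, with 0.90, -0.54 and 0.85. The mouse with the highest Fos in Egr1wtNesCre+, female 1, had the lowest Nr4a3 (62.9 CPM) and Tiparp (12.0 CPM) of the series. In all, 60 such correlations were computed, for 10 genes in 6 sets of mice.

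The slopes of the same 5 genes in the 6 Egr1cKO mice were positive too, with wider errors. They were 0.96 for Npas4 (SE 0.17, adjusted p = 0.0597), 0.54 for Arc (SE 0.14, adjusted p = 0.841), 0.53 for Ier2 (SE 0.16, adjusted p = 0.939), 0.41 for Btg2 (SE 0.14, adjusted p = 0.939) and 0.38 for Nr4a1 (SE 0.091, adjusted p = 0.572). Of the 10 genes 0 were called, beside 0.00507% of all genes (Dusp1 alone, slope 0.70, adjusted p = 0.00987), and these 5 stood at an unadjusted p under 0.05 beside 4.74% of all genes. DESeq2 called Arc, Npas4 and Nr4a1 among 311 of 36604 genes. The slopes of the other 5 genes lay between -0.070 (Homer1) and 0.24 (Nptx2).

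The difference between the slopes, Egr1cKO minus intact, was -0.0012 for Arc (95% CI -0.31 to 0.31), 0.010 for Npas4 (-0.35 to 0.37), -0.12 for Nr4a1 (-0.32 to 0.083), -0.18 for Btg2 (-0.49 to 0.13) and -0.25 for Ier2 (-0.61 to 0.12). The edgeR fit called 0 of 19741 genes for this difference, the 10 included (671 genes and 0 of the 10 at an unadjusted p under 0.05), and DESeq2 called 294, none of them among the 10. The lower bounds of these intervals, -0.31 for Arc and -0.61 for Ier2, include weaker slopes in Egr1cKO mice, so equal slopes are not shown. The intervals also depended on 1 mouse. Without Egr1cKO male 1 the difference was -1.005 for Arc, -0.57 for Nr4a1 and 0.56 for Npas4, outside these intervals and not called.

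**Figure D4:**
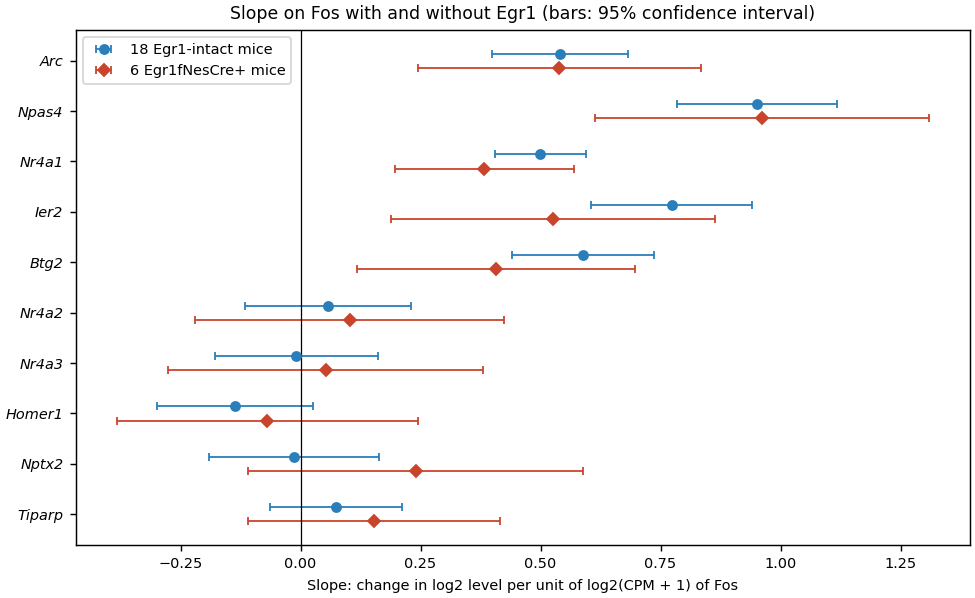
Slope on Fos (horizontal axis, change in log2 level per unit of log2(CPM + 1) of Fos) for the 10 genes in the 18 Egr1-intact mice and the 6 Egr1cKO mice, with bars for 95% confidence intervals. For Npas4, Ier2, Btg2, Arc and Nr4a1 both intervals lie above 0, and the intervals of Egr1cKO mice are wider and overlap those of intact mice for all 10 genes.

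The direction of the Egr1cKO slopes of Arc and Nr4a1 depended on a single animal. Egr1cKO male 1 had 4.76 CPM of Fos while the other 5 had 16.2 to 26.3 CPM. This mouse also had the lowest values of that genotype for Npas4 (5.001 CPM), Arc (86.5), Nr4a1 (50.6), Ier2 (3.24) and Btg2 (11.7). Without it the Egr1cKO slope was larger for Npas4 (1.51) and Btg2 (0.68) and somewhat smaller for Ier2 (0.42), but -0.47 for Arc and -0.069 for Nr4a1, with adjusted p between 0.307 and 0.988. Leaving out any 1 of 7 other mice, by contrast, brought Npas4 past the threshold in Egr1cKO mice (adjusted p 0.0163 to 0.0479).

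Among the 6 Egr1cKO mice, r with Fos was 0.92 for Ier2 (rho 0.83, exact permutation p of r = 0.0264), 0.90 for Nr4a1 (rho 0.54, exact p = 0.0986), 0.90 for Npas4 (rho 0.89, exact p = 0.0125), 0.81 for Arc (rho 0.20, exact p = 0.133) and 0.78 for Btg2 (rho 0.77, exact p = 0.107), unadjusted, where 0.00278 is the smallest exact p that 6 mice allow. The exact p of rho lay between 0.0333 for Npas4 and 0.714 for Arc. An r above 0.9 was found for 2 of the 10 genes (Ier2 and Nr4a1), beside 0.635% of all genes. Without male 1 and male 3, the 2 mice farthest from the median of Fos, r was 0.57 for Npas4, 0.31 for Arc, 0.25 for Ier2, 0.047 for Btg2 and -0.11 for Nr4a1. The 4 mice then left had 16.2 CPM of Fos (male 2) and 19.0, 25.1 and 21.5 CPM (the females). In Egr1wtNesCre- mice the same omission took r from 0.96 to -0.24 for Npas4 and from 0.86 to -0.21 for Arc, and these changes of r were not compared between genotypes by a test. Without the 2 mice low in hippocampal markers (Egr1wtNesCre+ female 1 and Egr1cKO male 3), the slopes in intact mice were 0.83 for Npas4, 0.78 for Ier2, 0.58 for Arc, 0.53 for Nr4a1 and 0.52 for Btg2, all 5 called, and those in Egr1cKO mice 0.85 for Npas4 (adjusted p = 0.185) and 0.69 for Arc (adjusted p = 0.135). Without the 4 mice highest in choroid plexus markers the same 5 genes were called in intact mice, and Npas4 passed in Egr1cKO mice (0.97, adjusted p = 0.0276) while Arc did not (0.52, adjusted p = 0.578), with 0 genes called for the difference in slope (adjusted p of 1 for all 10 members).

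The 40 other activity-induced genes were examined in the same way. Their summed level was 2358, 2118 and 2110 CPM in Egr1cKO females, above all Cre females (1855, 1665 and 1890 CPM). It overlapped that of floxed females (1906, 2050 and 2126 CPM). In both comparisons of Egr1cKO mice with controls 0 of the 40 were called, with medians of -0.011 against floxed and 0.15 against Cre controls. Egr2, a close relative of Egr1, had the highest value against floxed controls (log2 fold change 0.79, adjusted p = 0.296). For the slope on Fos in intact mice, 5 of 39 were called, namely Dusp1 (0.79), a phosphatase of MAP kinases, the AP-1 subunit Junb (0.50), Egr2 (0.91), the matricellular protein gene Ccn1 (0.76) and the pseudokinase gene Trib1 (0.30), and 17 stood at an unadjusted p under 0.05 beside 9.22% of all genes. In Egr1cKO mice the slope was 0.44 for Junb (adjusted p = 0.378) and 1.03 for Egr2 (adjusted p = 0.841). Egr1 itself had a slope of 0.24 in intact mice (adjusted p = 0.387), less steep than Npas4 or Egr2 and not called.

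The genes whose pattern across the 24 mice was most like each of the 10 were ranked by Spearman's rho among 15115 genes. Fos was among the genes ranked, so its place restates the relation to Fos given above. For Npas4, Nr4a1, Ier2 and Btg2 the 3 nearest genes were Fos, Junb and Dusp1 (rho 0.82 to 0.92), and for Arc they were Egr2 (0.91), Egr4 (0.86) and Dusp6 (0.83). The nearest genes of the other 5 were none of these, being Prkar1a (0.90) for Nr4a2, Arl5b (0.87) for Nr4a3, Bicd2 (0.91) for Homer1, Gpr3 (0.79) for Nptx2 and Glyr1 (0.84) for Tiparp. Among the 10 themselves, the closest pairs were Npas4 with Ier2 (0.89), Ier2 with Btg2 (0.89), Arc with Nr4a1 (0.87) and Npas4 with Btg2 (0.86), and Nr4a3 with Tiparp (0.80) was the closest pair among the other 5, whereas Btg2 with Homer1 was -0.61. Arc did not keep to 1 set, with rho of 0.66 for Tiparp and 0.64 for Nr4a3 beside 0.69 for Ier2, 0.62 for Npas4 and 0.57 for Btg2. All these values describe mice of all 4 genotypes, which share dissection and library depth with every gene compared.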

How the data were processed

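Poly(A) RNA of whole hippocampus was sequenced from 24 mice with a kit that does not mark strand. The authors deposited raw gene counts. Per the labels, reads went through Trim Galore 3.8.2, FastQC and STAR 2.7.9 on GRCm38 (GEO's processing notes). The paper's methods give other versions of Trim Galore and STAR. The annotation used for counting is not given in the sources used here. Libraries held 18025168 to 34955004 counts, and the lowest levels, those of Ier2 and Npas4, carry the largest relative counting error. All 36605 genes entered; 36477 had a GENCODE M21 symbol. No replicate pair agreed within sampling noise (lowest chi-square per degree of freedom 4.70 over 24 pairs). Each library carries a mouse number of its own in the labels.

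Fold changes came from edgeR 4.0.16 (quasi-likelihood, TMM, filterByExpr with a minimum count of 10, Benjamini-Hochberg over all genes) in R 4.3.3, with SE as the log2 fold change over the root of F. Pairwise calls needed a fold change of 1.2 and an adjusted p of 0.05; interactions and slopes needed the latter. Levels are CPM with TMM factors from 19742 genes; correlations used log2(CPM + 1) and permutation (100000 draws, or exact enumeration for 6 mice; Python 3.11.15, scipy 1.17.1). DESeq2 1.42.0, its size factors in edgeR, no low-count filter, no fold minimum, a replicate block, sex or Fos covariates, Junb for Fos, and single mice left out were tried as alternatives, and the single-sex fits, the fits without 2 mice low in hippocampal markers, both combined, and the fits without the 4 mice highest in choroid plexus markers were added after the data were seen. Fits were tested on simulated data. The named genes are all 10 members; they, the marker lists and the tests were chosen with earlier results of these data known.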

Additional observations from a re-analysis of the deposited data

Results flagged for a closer look

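In 40 groups of 6 mice (10 genes in 4 genotypes), 3 held a mouse whose gap to its nearest neighbour took an unusually large share of the group's range by Dixon's criterion. About 1 in 20 groups, or 2, would be expected by chance if groups were independent and their values spread normally. The gaps were taken on CPM without a log and the 10 genes share the same mice, so the 2 is only a rough guide. Npas4 was 64.4 CPM in Egr1wtNesCre+ female 1, where the nearest mouse had 27.9 CPM and the group median was 15.4 CPM. Nr4a1 was 54.4 CPM in Egr1wtNesCre- male 2, where the nearest mouse had 102 CPM and the median was 109 CPM. Ier2 was 13.1 CPM in Egr1fNesCre- male 3, where the nearest mouse had 6.44 CPM and the median was 6.18 CPM. Egr1fNesCre- male 3 also had the highest sum of choroid plexus markers among the Egr1fNesCre- mice (1055 CPM, median of the series 54.9), and Egr1wtNesCre- male 2 had the lowest Fos of its genotype (7.40 CPM). The part of either in these values was not tested.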

How the results depend on the processing

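Of the values for single genes that were tallied, 685 kept their direction and their side of the threshold, 44 came past it, 1 no longer passed and 42 turned direction. Of the counts of called genes, 189 stayed within 1.5 times and 68 did not. Both tallies cover all alternatives other than single mice left out. Not every gene was tallied in every comparison, so the 44 leaves out some genes that are in the counts of the 10 called. The count of the 10 genes called for the Fos slope in intact mice was 5 in these alternatives, apart from 6 without the filter on low counts, and 5 whichever of the 24 mice was omitted. Every tallied value that turned direction belonged to a difference or slope that had not been called, and 1 of them, Npas4 in female Egr1cKO mice against Cre controls without Egr1wtNesCre+ female 1, was called in its new direction. Where no cause is named, the cause was not tested. Relative counting error is largest for the genes at the lowest levels, Ier2 and Npas4, and its share in their spread was not tested. A test of 3 against 3 mice rests on few degrees of freedom.

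With DESeq2, counts over all genes were 68 for Egr1cKO against floxed controls, 3 for genotype by sex against floxed controls, 33 for Egr1cKO against Cre controls, 1 for genotype by sex against Cre controls, 19 for Nestin-Cre alone, 1 for the floxed allele alone, 3 for genotype by sex for the floxed allele, 42 for Egr1cKO against the other 18 mice, 57 for Nestin-Cre in females, 35 for the floxed allele in females, 3 for the floxed allele in males, 335 for floxP by Nestin-Cre, 291 for the Fos slope in intact mice, 311 for the Fos slope in Egr1cKO mice and 294 for the slope difference, and those among the 10 genes were 2 for Nestin-Cre alone, 2 for Nestin-Cre in females, 4 for the floxed allele in females, 1 for floxP by Nestin-Cre and 3 for the Fos slope in Egr1cKO mice. Without the filter on low counts they were 9 for Egr1cKO against floxed controls, 59 for genotype by sex against floxed controls, 140 for genotype by sex against Cre controls, 8 for Nestin-Cre alone, 17 for genotype by sex for Nestin-Cre, 4 for the floxed allele alone, 49 for genotype by sex for the floxed allele, 7 for Egr1cKO against the other 18 mice, 236 for Nestin-Cre in females, 23 for Nestin-Cre in males, 220 for the floxed allele in females, 56 for the floxed allele in males, 1173 for floxP by Nestin-Cre, 527 for the Fos slope in intact mice, 116 for the Fos slope in Egr1cKO mice and 49 for the slope difference, and among the 10 genes 2 for genotype by sex against floxed controls, 1 for genotype by sex against Cre controls, 1 for Nestin-Cre alone, 2 for genotype by sex for the floxed allele, 5 for Nestin-Cre in females, 7 for the floxed allele in females, 4 for floxP by Nestin-Cre and 4 for the Fos slope in Egr1cKO mice. DESeq2's size factors in edgeR and the omission of the fold minimum moved no count by over 1.5 times. For Egr1cKO against the other 18 mice the count was 3 with sex as a covariate and 2 with log2 Fos as a covariate, and with Junb in place of Fos it was 0 for the slope in Egr1cKO mice.

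The replicate numbers of the labels did not pair the mice, since 16 of 84 pairs of same-numbered mice had deviations correlated above 0.1 (median -0.015, range -0.26 to 0.35). With the replicate block, counts over all genes were 6 for Egr1cKO against floxed controls, 0 for the floxed allele in females and 1 for the floxed allele in males, 0 of the 10 genes were called for the floxed allele in females, and values turned to -0.10 for Npas4 in Egr1cKO against floxed controls, and -0.054 for Nr4a2 in the Fos slope in intact mice, and 0.064 for Arc and -0.017 for Npas4 in the slope difference. Without sex as a covariate values turned to 0.0067 for Nptx2 in the Fos slope in intact mice, and 0.066 for Homer1 in the Fos slope in Egr1cKO mice, and 0.022 for Arc and -0.0043 for Npas4 in the slope difference, and with Junb in place of Fos to 0.0047 for Nr4a3 in the Fos slope in intact mice, and 0.11 for Arc and -0.074 for Npas4 in the slope difference.

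Several alternatives were chosen after seeing the data. In females only, counts over all genes were 50 for Egr1cKO against floxed controls and 310 for Egr1cKO against Cre controls, and among the 10 genes 1 for Egr1cKO against floxed controls and 3 for Egr1cKO against Cre controls, with 0.14 for Nr4a1 and 0.047 for Ier2 in Egr1cKO against floxed controls. In males only the count was 1 for Egr1cKO against floxed controls, with -0.39 for Arc, -0.23 for Npas4, -0.14 for Nr4a3 and -0.21 for Tiparp in Egr1cKO against floxed controls, and -0.0083 for Nr4a1 and -0.13 for Nr4a2 in Egr1cKO against Cre controls. In females without Egr1wtNesCre+ female 1, counts were 1322 for Egr1cKO against Cre controls over all genes and 6 for Egr1cKO against Cre controls among the 10, with 0.78 for Npas4, 0.33 for Ier2 and 0.49 for Btg2 in Egr1cKO against Cre controls. In males without Egr1cKO male 3 the count was 1 for Egr1cKO against floxed controls, with -0.41 for Arc, -0.97 for Npas4, -0.29 for Btg2 and -0.14 for Tiparp in Egr1cKO against floxed controls, and -0.16 for Nr4a1, -0.13 for Nr4a2 and -0.0086 for Nptx2 in Egr1cKO against Cre controls. Without the 2 mice low in hippocampal markers, counts were 3 for Egr1cKO against Cre controls, 218 for Egr1cKO against the other 18 mice and 0 for the Fos slope in Egr1cKO mice, with -0.23 for Npas4 and -0.043 for Btg2 in Egr1cKO against floxed controls, and 0.12 for Nr4a3 in the Fos slope in intact mice, and 0.088 for Homer1 in the Fos slope in Egr1cKO mice, and 0.11 for Arc in the slope difference. Without the 4 mice highest in choroid plexus markers, counts were 1 for Egr1cKO against floxed controls, 2 for Egr1cKO against Cre controls, 24 for Egr1cKO against the other 18 mice, 7 for the Fos slope in intact mice and 2 for the Fos slope in Egr1cKO mice over all genes and 1 for the Fos slope in Egr1cKO mice among the 10, with 0.047 for Npas4 and 0.13 for Btg2 in Egr1cKO against Cre controls, and 0.062 for Nr4a3 in the Fos slope in intact mice, and -0.056 for Nr4a2, -0.037 for Nr4a3 and -0.033 for Tiparp in the slope difference. The correlation of Nptx2 with Fos in the 18 intact mice was -0.081 on CPM without a log and -0.24 without the 2 mice farthest from the median of Fos.

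With 1 mouse left out at a time, counts over all genes ran over 2 to 8 for Egr1cKO against floxed controls (8 without Egr1cKO male 2), 1 to 255 against Cre controls (255 without Egr1wtNesCre+ male 2), 1 to 215 against the other 18 (215 without Egr1cKO male 3), 0 to 111 for Nestin-Cre alone (111 without Egr1wtNesCre+ male 2), 0 to 33 for Nestin-Cre in females (33 without Egr1wtNesCre+ female 1), 0 to 8 in males (8 without Egr1wtNesCre+ male 2), 0 to 1136 for the floxed allele in females (1136 without Egr1fNesCre- female 1) and 0 to 17 in males (17 without Egr1fNesCre- male 1). In the comparison with the other 18, only the 6 Egr1cKO mice were left out in turn. Counts over all genes ran over 9 to 29 for the Fos slope in intact mice and 0 to 2 for that in Egr1cKO mice. For genotype by sex they ran over 0 to 2 against floxed controls, 0 to 1 against Cre controls and 0 to 5 for the floxed allele. Among the 10 genes they ran over 0 to 1 for Nestin-Cre alone, 0 to 5 in females, 0 to 8 for the floxed allele in females and 0 to 1 for the Fos slope in Egr1cKO mice. Values that turned direction for Egr1cKO against floxed controls ran over -0.0074 to 0.29 for Arc, -0.043 to 0.19 for Btg2, -0.30 to 0.063 for Ier2, -0.23 to 0.19 for Npas4, -0.30 to 0.068 for Nptx2 and -0.14 to 0.043 for Nr4a1. Values that turned direction for the slope difference ran over -1.005 to 0.16 for Arc, -0.28 to 0.092 for Btg2, -0.70 to 0.23 for Homer1, -0.13 to 0.56 for Npas4, -0.48 to 0.35 for Nptx2, -0.090 to 0.16 for Nr4a2, -0.75 to 0.25 for Nr4a3 and -0.36 to 0.21 for Tiparp. Values that turned direction for the Fos slope in Egr1cKO mice ran over -0.47 to 0.70 for Arc, -0.84 to 0.096 for Homer1, -0.50 to 0.33 for Nptx2, -0.069 to 0.41 for Nr4a1, -0.76 to 0.24 for Nr4a3 and -0.28 to 0.29 for Tiparp. Values that turned direction for Egr1cKO against Cre controls ran over -0.34 to 0.13 for Btg2 and -0.062 to 0.26 for Nr4a1. Values that turned direction for the Fos slope in intact mice ran over -0.071 to 0.015 for Nptx2, -0.039 to 0.17 for Nr4a2 and -0.073 to 0.12 for Nr4a3.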
